A study of Sus scrofa with 10 samples.

Results

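The genes of the cell cycle pathway were examined in RNA-seq libraries of pig ovaries from gilts injected with recombinant pig follicle-stimulating hormone (rpFSH) and from gilts injected with saline. A gene belonged to this set if its locus was listed as protein-coding and carried the KEGG term for the cell cycle in the deposited table. By this rule, 116 of the 19972 protein-coding loci belonged to it, out of 43499 loci in all, and all 116 passed the minimum mean level of 0.1 FPKM (fragments scaled to transcript length and library size) used for testing. Some well-known genes of the pathway, such as CCNA2, CDC25A, MCM5, ANAPC2 and SFN, were not analysed here.

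All 10 gilts were born on the same day and had been fed altrenogest, an oral progestogen that holds back the oestrous cycle, at 20 mg per day for 18 days from an age of 210 days. After 2 days without it, the 5 gilts of the rpFSH treatment group received 1000 IU of rpFSH, and the 5 gilts of the control group received saline. Ovaries were taken at 234 days of age, and the follicles on the surface were removed first, so the RNA came from the remaining mixture of follicle cells, luteal tissue, stroma and vessels. There was 1 library per pig, with between 64873797 and 75114003 counts. In a bulk sample of this kind, fewer cells of a type and less RNA per cell cannot be told apart.

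Cyclins bind cyclin-dependent kinases (CDKs) and switch them on in turn, and this order carries a cell through DNA replication and mitosis. CDK inhibitors, the RB proteins and the checkpoints hold the kinases or their targets back until each step is complete. In the ovary, the granulosa cells of growing follicles divide under FSH, luteal cells largely leave the cycle, and oocytes wait in meiotic arrest with parts of the same machinery. In this table the overlap was large: 39 of the 116 genes (33.6%) also carried the term for oocyte meiosis, which is 36.1% of the 108 loci with that term. A further pathway of the oocyte, progesterone-mediated oocyte maturation, shared 26 genes, or 22.4% of the cell cycle genes and 31.7% of that pathway's 82 loci.

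Few cell cycle genes differed between the groups. GADD45B and TGFB3 were higher in the rpFSH treatment group and CCNA1 was lower, each by limma at an unadjusted P under 0.05, and no other gene passed. The shares were 1.72% higher and 0.862% lower, against 0.817% higher and 2.21% lower among the 15170 protein-coding loci tested. Under the DE rule of the study, which also asks for a log2 ratio of group mean FPKM beyond 1, GADD45B was upregulated (0.25% of all tested loci were) and CCNA1 was downregulated (0.883% were). No gene of the set had an adjusted p under 0.05 with limma or with edgeR on the deposited counts, where 0.0% of all tested loci passed. With DESeq2, which called 0.567% of all tested loci at that level, GADD45B and CCNA1 passed with adjusted p-values of 0.0381 and 0.0415. The 3 genes with an unadjusted P under 0.05 were the same with all 3 tools, while over all tested loci edgeR called 1.52% higher and 3.21% lower and DESeq2 2.1% higher and 3.95% lower.

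GADD45B encodes a stress- and growth-factor-induced protein that can restrain the CDK1 and cyclin B complex. It lies on the minus strand of chromosome 2 (Sscrofa11.1, 76106916 to 76111442, locus MSTRG.18752). Its FPKM was 0.757, 1.56, 1.19, 0.699 and 0.591 in controls 1 to 5, and 5.25, 1.70, 0.986, 2.97 and 4.30 in rpFSH-treated pigs 1 to 5. Pigs 1, 4 and 5 of the rpFSH treatment group stood above every control, pig 2 was just above the highest control, and pig 3 lay within the control range. The means were 0.959 ± 0.404 and 3.04 ± 1.77 FPKM (SD, n = 5 each), a log2 ratio of 1.67. On the log2(FPKM + 1) scale the difference was 0.95 (SE 0.30), with P = 0.00890 and an adjusted p of 1.00 by limma, and the two-sided exact permutation test of mean FPKM gave p = 0.0317. The gene was well covered, with 219 to 1898 counts per pig, and the call was kept when any 1 of the 10 pigs was left out.

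The other members of the GADD45 family did not pass the test. GADD45A was between 4.25 and 13.3 FPKM in the control group and between 3.13 and 10.9 in the rpFSH treatment group, a log2 ratio of -0.40 (exact permutation p = 0.421). GADD45G was between 1.86 and 3.91 in controls and between 1.37 and 5.13 after rpFSH, a log2 ratio of 0.27 (exact p = 0.50). Within a pig, GADD45A exceeded GADD45B in FPKM in all 5 controls and in 3 of the 5 rpFSH-treated pigs.

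TGFB3 encodes a transforming growth factor beta ligand, a family whose SMAD signalling slows the entry into S phase in many cell types. It lies on the minus strand of chromosome 7 (99133511 to 99162221, locus MSTRG.31836). It was measured at 1.88, 1.56, 2.33, 2.01 and 4.37 FPKM in controls 1 to 5, and at 2.79, 3.24, 4.09, 3.15 and 5.61 in rpFSH-treated pigs 1 to 5. Every rpFSH-treated pig was above controls 1 to 4, while control 5 was above all of the rpFSH-treated pigs except pig 5. The means were 2.43 ± 1.12 and 3.78 ± 1.13 FPKM (SD, n = 5 each), a log2 ratio of 0.64. The limma difference was 0.50 (SE 0.22, P = 0.0422, adjusted p of 1.00), and the exact permutation test gave p = 0.0952. The limma call was kept without control 5, rpFSH 1 or rpFSH 4, and it was lost when any of the other 7 pigs was taken away, with log2 ratios between 0.45 and 0.69. The other ligands, TGFB1 and TGFB2, had log2 ratios of 0.10 and -0.00041 (exact p = 0.659 and 1.00), and SMAD2, SMAD3 and SMAD4 (the last on a locus shared with ELAC1), which carry the signal to the nucleus, had log2 ratios from -0.13 to -0.09.

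CCNA1 encodes cyclin A1, known best for its place in male meiosis. It lies on the plus strand of chromosome 11 (12395872 to 12405399, locus ENSSSCG00000009354). Its FPKM was 0.117, 2.06, 0.154, 0.294 and 1.52 in controls 1 to 5 and 0.0534, 0.111, 0.0519, 0.0001 (the table's entry for 0 counts) and 0.0985 in rpFSH-treated pigs 1 to 5. All rpFSH-treated pigs were below all controls, the only one of the 116 genes for which the groups did not overlap, compared with 0.547% of all tested loci in that direction and 0.0791% in the other. The gap itself was narrow, since the lowest control had 23 counts and the highest rpFSH-treated pig 25 counts in a larger library. The means were 0.829 ± 0.901 and 0.0629 ± 0.0439 FPKM (SD, n = 5 each), a log2 ratio of -3.72. The limma difference was -0.65 (SE 0.27, P = 0.0364, adjusted p of 1.00), and the exact permutation test gave p = 0.00794, the smallest that 5 pigs against 5 allow.

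Most of the difference in CCNA1 came from control 2 and control 5, which held 434 and 329 counts against 64 or fewer in each of the other 8 pigs. These are also the 2 pigs with high levels of most genes of ciliated and oviduct-type epithelium. FOXJ1, the master regulator of motile cilia, was at 5.82 and 14.1 FPKM in them and at 0.212 or less in each other pig. MAL2 did not follow, with 5.23 FPKM in control 5 against 10.9 and 6.35 in controls 1 and 3. DNAI1 was at 1.81 and 2.44 FPKM in controls 2 and 5 but reached 1.17 in control 3 and 1.29 in rpFSH 2. Over the whole marker list, 12 of 15 genes were tested, all 12 had a lower mean in the rpFSH treatment group and 4 passed a limma P under 0.05 (11 with edgeR and 11 with DESeq2). The summed FPKM of the 11 loci that hold 1 gene was 55.6 in control 2 and 90.5 in control 5, 9.89 to 16.9 in the other controls and 4.87 to 7.53 in the rpFSH treatment group. The part of these cells in the CCNA1 result was not tested. Without controls 2 and 5, an alternative added after seeing the data, the log2 ratio was -1.58, with an unadjusted P that stayed under 0.05 with limma but not with edgeR (limma adjusted p of 0.651). The limma call was kept without control 1, 3 or 4 and lost when any 1 of the other 7 pigs was left out.

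**Figure D1:**
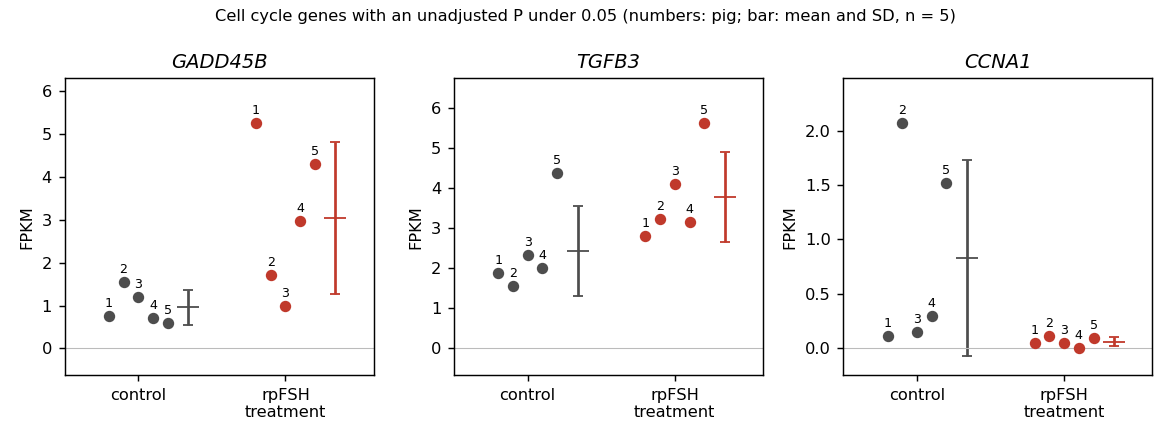
FPKM of GADD45B, TGFB3 and CCNA1 in each pig, with controls in grey and rpFSH-treated pigs in red. The number at each point is the pig, and the bar beside each group is the mean with its SD (n = 5). GADD45B is above the control range in 4 of 5 rpFSH-treated pigs, control 5 overlaps the rpFSH treatment group for TGFB3, and controls 2 and 5 carry most of the CCNA1 signal.

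Across the set, small differences leaned toward lower values after rpFSH, as they did among all genes. The median log2 ratio of the 116 genes was -0.13, and 85 of them (73.3%) were below 0. Over all tested protein-coding loci the median was -0.08, and 64.0% were below 0. With edgeR's TMM scaling of the counts the medians were -0.06 and -0.01. The median of the set depended on single pigs. It was -0.03 without control 1, -0.06 without control 4, -0.06 without rpFSH 3 and -0.18 without rpFSH 1.

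**Figure D2:**
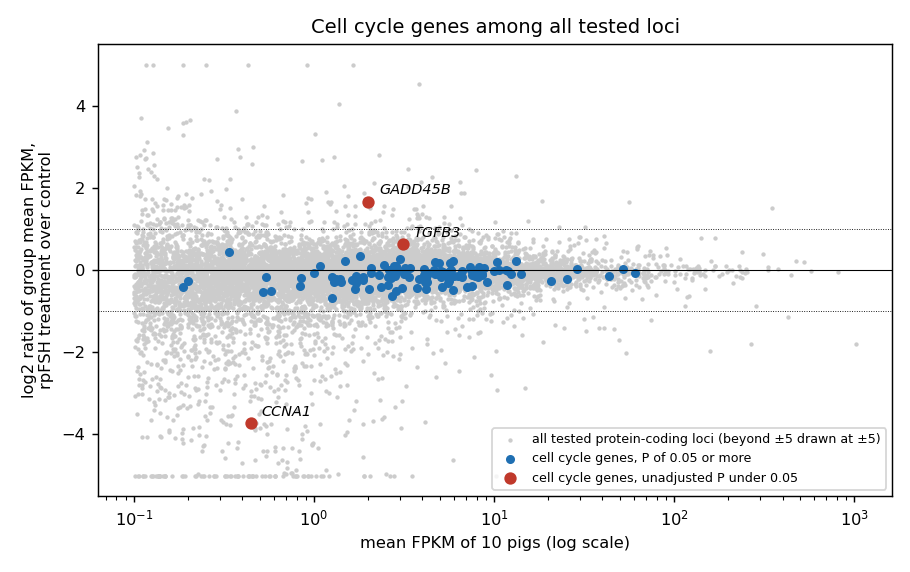
Log2 ratio of group mean FPKM (rpFSH treatment over control) against the mean FPKM of the 10 pigs on a log axis. Grey points are the 15170 protein-coding loci tested, blue points the cell cycle genes that did not pass and red points the 3 that had an unadjusted limma P under 0.05, and dotted lines mark a log2 ratio of 1 and -1. All cell cycle genes except GADD45B and CCNA1 lie between the dotted lines.

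**Figure D3:**
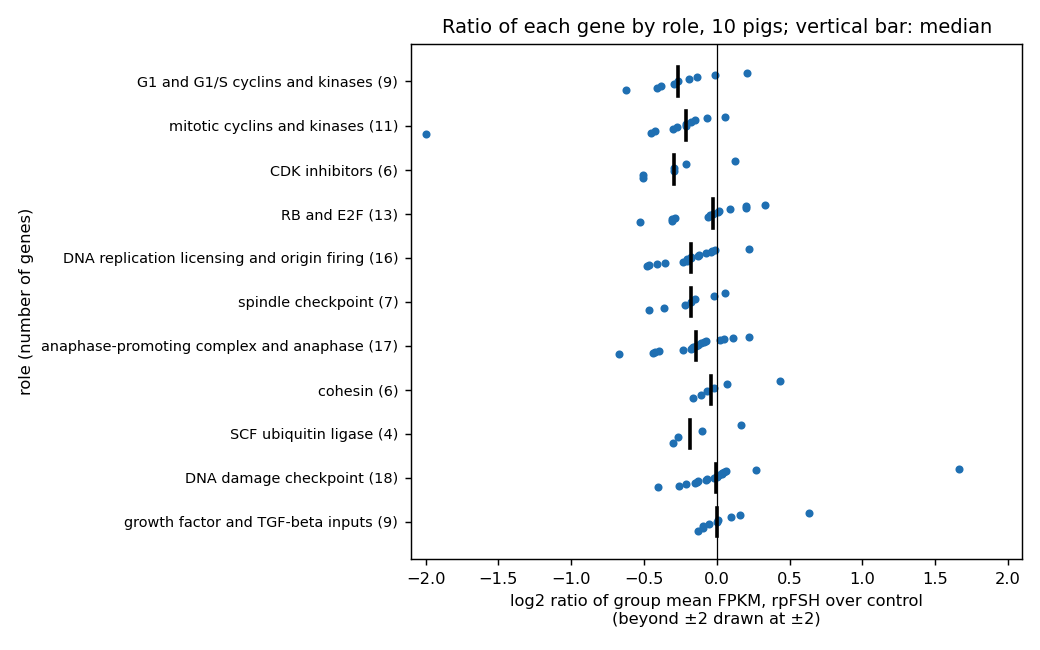
Log2 ratio of group mean FPKM (rpFSH treatment over control, 10 pigs) of each cell cycle gene by role. Each point is a gene, the vertical bar is the median of the role, and ratios beyond the axis are drawn at its end. The medians of the roles lie between -0.29 for the CDK inhibitors and -0.00041 for the growth factor and TGF-beta inputs.

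The genes of the first gap phase and of entry into S phase were clearly expressed and did not pass the test. CCND2, the D-type cyclin that FSH is known to induce in granulosa cells, had the highest level of the 9 genes. It was at 20.9, 12.1, 18.1, 26.9 and 35.4 FPKM in controls 1 to 5 and at 13.6, 21.7, 18.8, 17.8 and 22.5 in rpFSH-treated pigs 1 to 5. All rpFSH-treated values lay inside the control range, and the log2 ratio was -0.26 (exact p = 0.444). Within a pig it exceeded CCND1 in 10 of 10 pigs and CCND3 in 9 of 10.

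CCND1, the D-type cyclin of many growth-factor responses, was at 6.51 and 8.74 FPKM in controls 2 and 5, at 7.02 in rpFSH 1 and between 2.46 and 3.27 in the other 7 pigs. Its log2 ratio was -0.29 with all pigs (exact p = 0.706) and 0.53 without controls 2 and 5, so the direction was set by those controls. CCND3 was between 3.61 and 14.9 FPKM in controls and between 2.61 and 8.56 after rpFSH (log2 ratio -0.38, exact p = 0.413). CDK4, the partner kinase of the D-type cyclins, differed little between pigs, with 4.57 to 7.45 FPKM in controls and 4.77 to 6.62 after rpFSH (log2 ratio -0.14, exact p = 0.381). CDK6, the other partner, carried no cell cycle term in the table. It was at 16.5, 7.14, 10.6, 9.26 and 12.6 FPKM in controls 1 to 5 and at 2.96, 11.4, 8.12, 6.95 and 2.99 in rpFSH-treated pigs 1 to 5. The groups overlapped, though rpFSH 1, 4 and 5 were below every control. The log2 ratio was -0.79, with P = 0.0363 and an adjusted p of 1.00 by limma, 0.0714 by the exact permutation test and 0.109 by edgeR.

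Cyclin E opens S phase together with CDK2. CCNE2 was at 4.29, 1.07, 3.37, 5.76 and 2.04 FPKM in controls 1 to 5 and at 1.69, 3.71, 1.93, 1.62 and 1.77 in rpFSH-treated pigs 1 to 5. Every rpFSH-treated value lay inside the control range, and control 2 was the lowest of all 10 pigs. The log2 ratio was -0.63 (exact p = 0.262). CCNE1 was measured at lower levels, with 0.507 to 1.09 FPKM in controls and 0.520 to 1.22 after rpFSH (exact p = 0.516). The locus of CDK2 also holds RAB5B, so its 6.04 to 17.6 FPKM cannot be given to either gene.

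Of the CDK inhibitors, 6 genes were measured and none passed. CDKN1A (p21), which marks many cells that have left the cycle, was at 6.16, 24.7, 5.23, 5.24 and 8.71 FPKM in controls 1 to 5 and at 15.2, 3.46, 6.24, 10.6 and 5.42 in rpFSH-treated pigs 1 to 5. The 3 highest pigs were control 2, rpFSH 1 and rpFSH 4. The same 3 pigs held the most STAR, which brings cholesterol into mitochondria for steroid synthesis, with 532, 448 and 121 FPKM against 5.67 or less in each other pig. They also held the most CYP11A1, which makes pregnenolone, with 1758, 787 and 178 FPKM against 34.4 or less elsewhere. Of the other luteal and steroidogenic markers, HSD3B1, SCARB1, FDX1 and PTGFR were highest in these 3 pigs too, but LHCGR and NR5A1 were not. LHCGR was at 2.74 FPKM in control 2, below controls 3 and 4 (4.01 and 3.58), and NR5A1 was lowest of the 10 pigs in rpFSH 4 (3.46). The summed FPKM of the 8 luteal and steroidogenic markers was between 24.3 and 3090 in controls and between 40.3 and 1794 after rpFSH, and 0 of the 8 passed an unadjusted P under 0.05 with limma, edgeR or DESeq2. The part of luteal cells in the CDKN1A levels was not tested.

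CDKN1B (p27) had 4.60 to 7.07 FPKM in controls and 3.55 to 7.64 after rpFSH (log2 ratio -0.21, exact p = 0.341). CDKN1C (p57) had 0.803 to 2.65 and 0.922 to 1.91 FPKM (exact p = 0.508), and CDKN2B (p15) had 0.344 to 1.18 and 0.284 to 0.720 FPKM (exact p = 0.310). The locus with the CDKN2A identifier carried no cell cycle term and was below the minimum level for testing.

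The 13 genes of the RB and E2F group, which couple CDK activity to S phase transcription, included the steadiest gene of the set and some of the most variable. RB1 had 5.06 to 5.49 FPKM in controls and 4.77 to 5.50 after rpFSH (log2 ratio -0.06, exact p = 0.230). E2F1, an activator of S phase genes, had 0.287 to 3.44 FPKM in controls and 0.422 to 2.34 after rpFSH (log2 ratio -0.31, exact p = 0.627). Among the 16 genes of DNA replication, which load and fire the MCM helicase, 15 had a log2 ratio below 0 and none passed the test. Of all tested loci, 64.0% had a log2 ratio below 0. MCM2 was at 9.41, 0.976, 5.13, 6.47 and 2.31 FPKM in controls 1 to 5 and at 6.09, 2.97, 1.46, 1.77 and 5.30 in rpFSH-treated pigs 1 to 5. Both groups ran from low to high pigs and overlapped, and the log2 ratio was -0.47 (exact p = 0.508). PCNA, the sliding clamp of DNA polymerase, had 3.84 to 10.8 FPKM in controls and 4.66 to 8.07 after rpFSH (log2 ratio -0.18, exact p = 0.619).

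The mitotic genes varied most between pigs of the same group. CCNB1, the cyclin that drives entry into mitosis, was at 8.43, 0.632, 5.14, 6.35 and 2.13 FPKM in controls 1 to 5 and at 5.76, 5.92, 0.909, 1.80 and 4.02 in rpFSH-treated pigs 1 to 5. Its kinase CDK1 was at 3.92, 0.323, 2.85, 4.01 and 0.608 FPKM in controls and at 2.42, 2.58, 0.501, 1.08 and 2.01 after rpFSH, with the pigs listed as before. For both genes control 2 was the lowest pig of all and rpFSH 3 was the lowest of its group. The highest control exceeded the lowest by 13.3-fold for CCNB1 and 12.4-fold for CDK1, and the log2 ratios between the groups were -0.30 and -0.45 (exact p = 0.619 and 0.50).

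PLK1, a kinase of centrosomes and spindle, ranged from 0.905 to 10.4 FPKM in controls and from 1.96 to 7.71 after rpFSH (log2 ratio -0.27, exact p = 0.595). BUB1, a kinase of the spindle checkpoint, had the widest range of the set among controls, from 0.180 in control 2 to 3.28 in control 1, or 18.2-fold, and lay between 0.578 and 2.84 after rpFSH (log2 ratio -0.15, exact p = 0.802). CCNB2 was between 0.545 and 5.36 FPKM in controls and between 1.03 and 3.91 after rpFSH (exact p = 0.778). CDC20, the activator of the anaphase-promoting complex, was between 0.985 and 7.15 FPKM and between 1.30 and 5.02 FPKM (exact p = 0.389). None of these differences exceeded the spread between pigs.

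**Figure D4:**
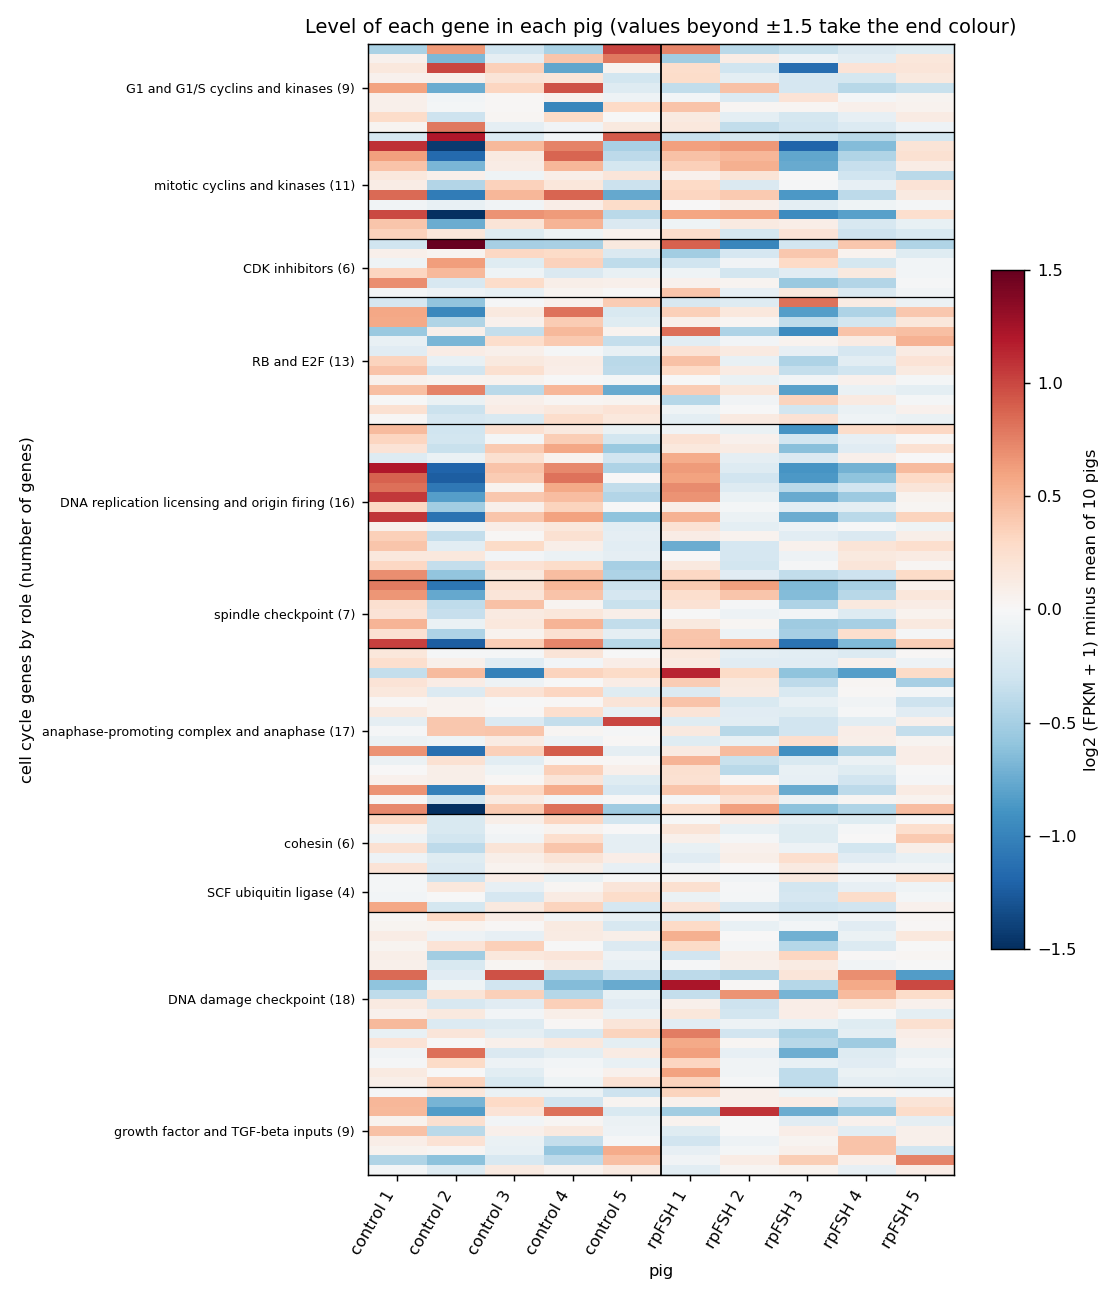
Level of each of the 116 cell cycle genes (rows, grouped by role, with the number of genes) in each of the 10 pigs (columns, 5 controls left of the line and 5 rpFSH-treated pigs right of it). Colour is log2(FPKM + 1) minus the mean of the 10 pigs, and values beyond the colour scale take its end colour. Blue columns for control 2 and rpFSH 3 recur in the mitotic, replication and spindle checkpoint groups.

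Over the whole set, 21 genes (18.1%) differed by over 5-fold between the lowest and the highest control and 10 (8.62%) between the lowest and the highest rpFSH-treated pig, where a level below 3 counts was set to 3 counts. Among all tested loci these shares were 19.3% and 14.5%. Weakly expressed loci vary more by counting alone. With loci of a mean FPKM of at least 1, 17 of 107 cell cycle genes (15.9%) differed by over 5-fold between controls against 10.2% of all such loci, and 8 (7.48%) did between rpFSH-treated pigs against 7.34%.

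These 21 genes fell mainly into a few roles. They were 6 of the 11 mitotic cyclins and kinases, 3 of the 7 spindle checkpoint genes, 4 of the 16 replication genes, 3 of the 17 genes of the anaphase-promoting complex and anaphase, and 2 of the 13 RB and E2F genes. The G1 cyclins, cohesin and the SCF ubiquitin ligase had 1 each, and the 6 CDK inhibitors, 18 DNA damage checkpoint genes and 9 growth factor and TGF-beta inputs had none. The same pigs recurred at the ends. Control 2 was the lowest control in 19 of the 21 genes and the lowest of all 10 pigs in 18, and rpFSH 3 was the lowest of its group in 19. The highest control was control 1 in 11 genes and control 4 in 8, and the highest rpFSH-treated pig was rpFSH 2 in 12. The 21 genes were chosen by their range among controls, so the choice itself favoured controls at the ends of that range. Over all 116 genes, control 2 was the lowest control in 57 and the highest in 20. In its group rpFSH 3 was the lowest in 56 of the 116 and the highest in 12.

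Proliferation genes that carry no cell cycle term were mostly lowest in the same pigs, while a broader list of cell cycle genes followed them less. MKI67, which encodes the Ki-67 antigen, was at 6.51, 0.703, 4.36, 6.75 and 2.97 FPKM in controls 1 to 5 and at 5.06, 7.45, 0.880, 2.23 and 4.09 in rpFSH-treated pigs 1 to 5. TOP2A, the topoisomerase that separates sister chromatids, was between 0.908 and 19.0 FPKM in controls and between 1.96 and 18.3 after rpFSH, again lowest in control 2 and rpFSH 3. Over 32 such proliferation genes, control 2 was the lowest control in 30 and rpFSH 3 the lowest of its group in 26. Of these 32 genes, 0 passed an unadjusted P under 0.05 with limma, edgeR or DESeq2. A log2 ratio below 0 was found in 27 of them, and in 64.0% of all tested loci. Between controls 23 differed by over 5-fold, against 19.3% of all tested loci and 10.2% of those with a mean FPKM of at least 1. The 32 genes were mostly lowest in the same pigs, so they are not separate observations. A second list held 26 loci of cell cycle genes without the term, taken from the same roles. It shared some genes with the first, with 52 loci in either list. Here control 2 was the lowest control in 10 and the highest in 8, and rpFSH 3 was the lowest of its group in 15. In this list 1 gene had an unadjusted limma P under 0.05, CDK6, which was lower. The count tools did not call CDK6 and passed other genes of that list, all higher: REC8 and CHEK2, each on a locus shared with other genes, with edgeR, and these with STAG3, a cohesin subunit of meiosis, with DESeq2. These names were chosen after their values were seen.

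Markers of several cell types also stood at their lowest or highest in these pigs. Of the 8 granulosa markers tested, control 2 was the lowest control in 6 and rpFSH 3 the lowest of its group in 7. FSHR, the FSH receptor, was at 7.02, 0.375, 5.97, 4.36 and 3.05 FPKM in controls 1 to 5 and at 2.29, 6.36, 1.33, 1.36 and 4.13 in rpFSH-treated pigs 1 to 5. INHBB, an inhibin and activin subunit of growing follicles, was at 1.57 FPKM in control 2 and 1.68 in rpFSH 3, and between 5.58 and 79.1 in the other 8 pigs. Other markers of the list did not follow these in control 2. NR5A2, a nuclear receptor also present in luteal cells, was at 23.9 FPKM in control 2, the highest control, and FST, which encodes follistatin, was lowest in control 5 (9.79 FPKM) rather than in control 2 (17.7 FPKM).

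The summed FPKM of the 6 granulosa markers with a locus of their own was 45.0 in control 2 and between 25.6 and 226 over the controls, with the lowest value in control 5. It was 11.8 in rpFSH 3 and up to 206 in the rest of that group. The 8 granulosa markers gave 0 calls at an unadjusted P under 0.05 with limma, edgeR or DESeq2. The sum of 6 stroma markers was lowest of its group in both pigs. It was 195 in control 2 against up to 1031 in other controls, and 346 in rpFSH 3 against up to 1320. Of the 7 stroma markers tested, control 2 was the lowest control in 5. In its group rpFSH 3 was the lowest in 3, as was rpFSH 1. Low values in rpFSH 3 held for COL1A1, COL1A2 and COL3A1 but not for DCN (138 FPKM) or PDGFRA (26.9 FPKM), where rpFSH 1 was lowest (96.3 and 22.6 FPKM). The sum of 6 leukocyte markers was highest of its group in both pigs. It was 41.9 in control 2 against 12.7 or less in other controls, and 24.6 in rpFSH 3 against 19.2 or less. Most of both sums was LYZ alone, with 30.9 FPKM in control 2 and 14.9 in rpFSH 3. Of the 8 leukocyte markers tested, control 2 was the highest control in 5. In its group rpFSH 3 was the highest in 3, as was rpFSH 4. The summed FPKM of 10 oocyte markers was between 6.03 and 25.1 in controls and between 12.7 and 21.8 after rpFSH, so oocyte genes were detected in every library. Here control 2 had the lowest sum of the controls, while rpFSH 3 had the highest of its group. The part of the cell mixture in the levels of the mitotic genes was not tested.

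**Figure D5:**
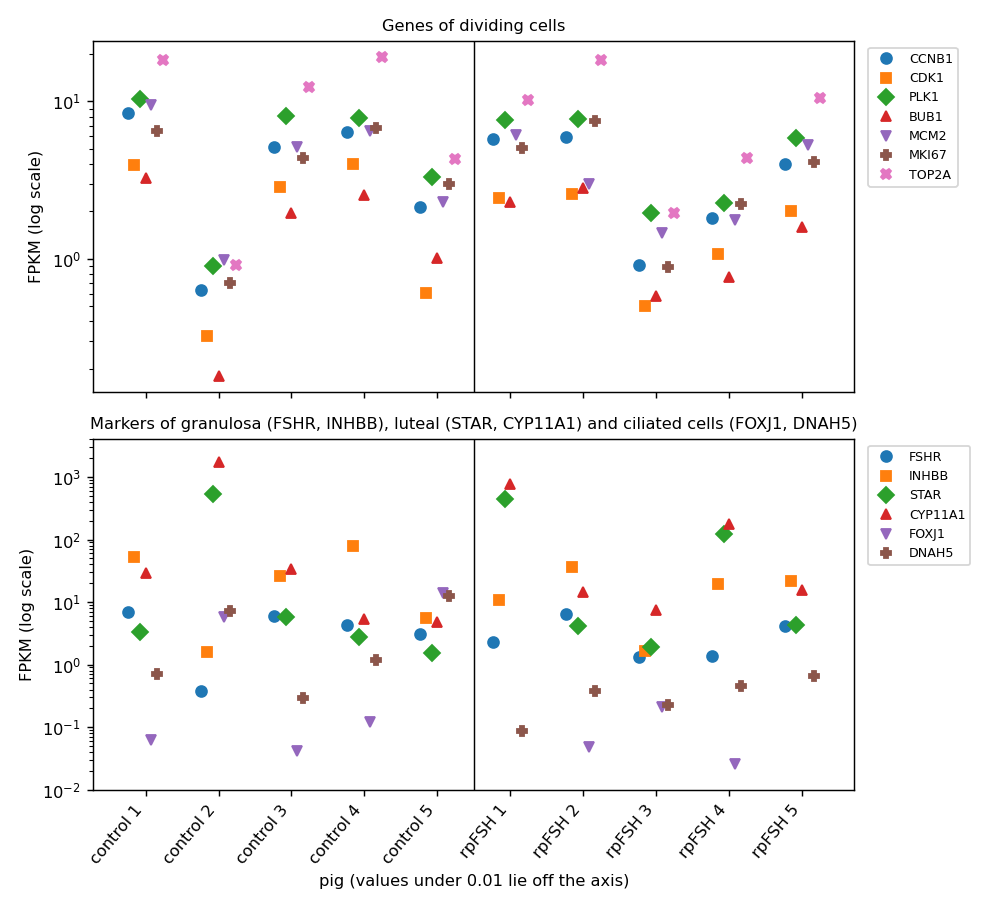
FPKM on a log axis in each pig for genes of dividing cells (upper panel) and for markers of granulosa, luteal and ciliated cells (lower panel), with controls left of the line and rpFSH-treated pigs right of it. CCNB1, CDK1, PLK1, BUB1, MCM2, MKI67 and TOP2A are lowest of their groups in control 2 and in rpFSH 3, where FSHR and INHBB are lowest too. FOXJ1 of rpFSH 1 and rpFSH 5 had 0 counts and lies off the axis.

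Because control 2 and control 5 had the highest sums of the ciliated and oviduct-type genes, the comparison was also made without them, as an alternative added after seeing the data. These are also the controls with the lowest mitotic and replication genes. The mean log2(FPKM + 1) of the 11 mitotic genes was 0.97 and 1.36 in controls 2 and 5 against 1.67 to 1.92 in the other controls, and that of the 16 replication genes was 1.56 and 1.80 against 2.30 to 2.60. The low pigs of the rpFSH treatment group were kept, with 1.06 in rpFSH 3 and 1.12 in rpFSH 4 for the mitotic genes. Lower values after rpFSH were therefore built into this choice of pigs, and its counts are not evidence of a difference between the groups. With limma, 18 of the 116 genes (15.5%) were lower at an unadjusted P under 0.05, against 5.01% of all tested loci, and 4 of them were DE, against 1.4%. A further 2 were higher, against 2.4%. With edgeR, 4 were lower (2.29% of all tested loci), 0 of them DE (0.771%), and 2 were higher (4.54%). No gene of the set had an adjusted p under 0.05 in either fit. When the 3 pigs with high luteal genes were taken away in place of these, limma gave 1 higher gene (0.844% of all tested loci) and 3 lower genes (3.14%), 0 of them DE (0.639%). This choice left out control 2, the lowest control in 57 of the 116 genes, and rpFSH 1, the highest of its group in 55. It also left out rpFSH 4, the lowest of its group in 20. The median log2 ratio of the set was -0.22, against -0.13 with all pigs, so this choice was not neutral in direction either.

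The DNA damage checkpoint and 14-3-3 genes included the highest levels of the set. YWHAE, a 14-3-3 protein that holds CDC25 phosphatases in the cytoplasm, had the highest mean of the 116 genes, 60.7 FPKM, with 53.5 to 68.9 FPKM in controls and 40.7 to 88.9 after rpFSH (exact p = 0.810). MYC, a transcription factor that promotes growth and S phase entry, had nearly equal means of 7.47 ± 2.62 and 7.50 ± 1.07 FPKM (SD, n = 5 each; exact p = 0.960).

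The lowest mean, 0.187 FPKM, belonged to PKMYT1, an inhibitory kinase of CDK1, with 30 to 206 counts per pig. A locus described as similar to SKP1 had a mean of 0.201 FPKM and only 0 to 20 counts, while the gene named SKP1 lies at another locus without the term. No gene of the set was at 0 counts in every pig. Genes with a known part in meiosis were weak but present. SMC1B, the meiotic cohesin subunit, was between 0.0961 and 0.577 FPKM in controls and between 0.165 and 0.738 after rpFSH (exact p = 0.444). CCNB3 was between 0.187 and 1.70 FPKM in controls and between 0.134 and 1.76 after rpFSH (exact p = 0.889). The locus of WEE2, the oocyte counterpart of WEE1, also holds SSBP1, and its 0.913 to 2.01 FPKM cannot be divided between them. In all, 9 of the 116 loci held more than 1 gene.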

How the data were processed

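Ovary RNA of 10 gilts was sequenced, 5 per group with 1 library each. After trimming with Cutadapt, the authors aligned the reads to Sscrofa11.1 using Hisat2 and Bowtie2 and produced the deposited FPKM values with StringTie and Ballgown. The submitters' processing notes name HISAT2 2.0, Bowtie 0.12.2 and StringTie 1.3.0. How the authors made the deposited counts is not given in the sources used here. The labels describe a poly(A) library and the methods a stranded one after removal of ribosomal RNA. Whether the counting used strand is not given, so a gene and its antisense partner may share reads. Pig numbers come from the sample titles.

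The main test was limma 3.58.1 (lmFit, eBayes with trend) in R 4.3.3 on log2(FPKM + 1), in place of Ballgown's test. It was fitted over the 15170 protein-coding loci whose mean FPKM reached 0.1, with Benjamini-Hochberg adjustment over all of these. Fold changes are log2 ratios of group mean FPKM unless a limma difference is named, which understates changes of low genes. The deposited counts were tested with DESeq2 1.42.0 and with the quasi-likelihood test of edgeR 4.0.16 after TMM scaling. For single genes, group means were also compared in all 252 assignments of the pigs (an exact permutation test, two-sided, with a smallest p of 0.00794). Scripts were tested on simulated data. Other alternatives were a pseudocount of 0.1, FPKM filters of 0 and 1, scaling by upper quartile or by quantiles, a replicate block and the removal of single pigs. A further 3, without pigs that stood apart, were added after seeing the data. A floor of 3 counts was used for fold ranges. P-values judge the difference between the groups against the spread between pigs.

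Symbols are those of the deposited table, 13 of them from its description column. The genes described were those with an unadjusted P under 0.05, a list of well-known cell cycle genes whatever their P, the highest and lowest levels, and MKI67 and TOP2A. A gene of that list is not reported here. GADD45A, GADD45G, TGFB1, TGFB2 and the SMAD genes were added beside called members of their families. The gene set, roles and marker lists were chosen with earlier results of these data known.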

Additional observations from a re-analysis of the deposited data

Results flagged for a closer look

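Of 66 groups of 5 pigs checked among the named genes, 5 held a pig whose distance from its nearest neighbour was over 0.71 of the group's range, and chance alone flags about 5% of such groups. In the control group these were TGFB3 in control 5, at 4.37 FPKM against 1.56 to 2.33 in the other controls, and CDKN1A in control 2, at 24.7 FPKM against 5.23 to 8.71. In the rpFSH treatment group CCND1 was at 7.02 FPKM in rpFSH 1 against 2.64 to 3.27, and the CDK2 and RAB5B locus was at 17.6 FPKM in rpFSH 1 against 13.1 to 13.6. CCNE2 was at 3.71 FPKM in rpFSH 2 against 1.62 to 1.93.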

How the results depend on the processing

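GADD45B was called under every alternative run, and no alternative reversed GADD45B, CCNA1 or TGFB3. The cause of the changes below was not tested, except that CCNA1 is below a filter at a mean FPKM of 1, where 0 genes were lower and 0 DE genes were lower. DESeq2 gave 2 adjusted p-values under 0.05, limma and edgeR 0. Leaving out 1 pig gave 1 to 2 higher genes, 0 to 3 lower genes and 0 to 1 DE genes that were lower. Without controls 2 and 5, 18 genes were lower with limma (4 DE) and 4 with edgeR (0 DE), but these are also the controls with the lowest mitotic and replication genes, so the direction follows from the choice of pigs. Without control 2 and rpFSH 1 and 4, 1 was higher and 3 were lower (0 DE), a choice that was not neutral in direction either. The median log2 ratio of the set was between -0.18 and -0.03 with 1 pig left out. The pairing of the pig numbers was not borne out, since deviations of same-numbered pigs had r from -0.41 to 0.11 and 0 pigs correlated best with their own number. The replicate block gave 2 higher and 1 lower gene and changed no call.

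Log2 ratios of the uncalled named genes changed sign in 49 of 625 fits. RB1 was 0.010 with edgeR and 0.013 with DESeq2, YWHAE 0.00072 and 0.0049, CCNB3 0.0055 with DESeq2 and 0.058 after quantile normalization, and SKP1-like 0.032 after the latter. Without controls 2 and 5, limma and edgeR gave CCND1 0.53 and 0.59, CDKN1A 0.56 and 0.62, MYC -0.19 and -0.12, and SKP1-like 0.24 and 0.33. Without control 2 and rpFSH 1 and 4, CDKN1C was 0.22 and MYC -0.044. Leaving out 1 pig moved CCND1 between -0.64 and 0.072, CCNB1 between -0.58 and 0.046, CCNB2 between -0.41 and 0.18, PLK1 between -0.55 and 0.0040, BUB1 between -0.45 and 0.19, PCNA between -0.33 and 0.031, CDKN1A between -0.64 and 0.37, E2F1 between -0.58 and 0.027 and MYC between -0.15 and 0.17. The ranges were -0.39 to 0.21 for CCNB3, -0.26 to 0.045 for YWHAE, -0.92 to 0.16 for SKP1-like, -0.47 to 0.14 for MKI67 and -0.70 to 0.015 for TOP2A. With 0 to 25 counts in rpFSH-treated pigs, CCNA1 is limited by depth.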
